A study of Mus musculus with 30 samples.

Results

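Transcripts of neutrophil granule and S100 alarmin proteins were followed through 8 sorted mononuclear phagocyte populations from the blood and brain of glioma-bearing mice. The members are 10 genes, S100a8, S100a9, Ngp, Camp, Ltf, Lcn2, Retnlg, Mmp8, Mpo and Elane, out of 45317 gene symbols with counts. They were chosen by name as the usual granule and alarmin genes, not by their values here, but with earlier results of these data known. All mice carried the strain label C57BL6.CCR2RFP/WT, a red fluorescent protein placed in 1 copy of Ccr2, the gene of a chemokine receptor of monocytes, and were 12 to 18 weeks old. All had received GL261 cells, a mouse glioma line made here to carry green fluorescent protein (GFP) on its membrane, in the striatum about a month before. The blood populations were Ly6Chigh and Ly6Clow monocytes, each from mice 22, 23 and 24. The brain populations were glioma monocytes from mice 22, 24 and 26, and CCR2high and CCR2low macrophages from mice 22, 23, 24 and 26, each sorted as GFPneg or GFPpos, that is, without or with GFP. GFP marks cells that hold tumor membrane at the time of sorting and does not show how they came by it. No mouse without a tumor was included, so nothing below compares a tumor-bearing with a healthy animal.

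Neutrophils are built in the bone marrow in steps, and each step fills a different kind of granule. Azurophil granules come first and hold myeloperoxidase (Mpo) and neutrophil elastase (Elane). Specific granules follow and hold lactotransferrin (Ltf), cathelicidin (Camp), neutrophilic granule protein (Ngp), lipocalin 2 (Lcn2) and the collagenase Mmp8. S100a8 and S100a9 form calprotectin, a calcium-binding alarmin that lies in the cytosol of neutrophils and, at a lower level, of monocytes. Retnlg encodes a small secreted protein of the resistin family and is known from mature neutrophils. Early monocytes can carry some of these transcripts too, since both lineages share a progenitor. Bulk libraries such as these hold the RNA of many cells. Fewer cells of a type and less RNA per cell cannot be told apart in them.

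On the GRCm38 genome, the members are 10 protein-coding genes on 6 chromosomes. S100a8 (chr3:90668978-90670035, plus strand) and S100a9 (chr3:90692632-90695721, minus strand) lie 22.6 kb apart on chromosome 3. Camp (chr9:109847379-109849617, minus strand), Ngp (chr9:110419747-110423012, plus strand) and Ltf (chr9:111019271-111042767, plus strand) lie in a row on chromosome 9, with 570.1 kb between Camp and Ngp and 596 kb between Ngp and Ltf. Mmp8 (chr9:7558456-7568485) is on the same chromosome, far from them. Lcn2 is on chromosome 2, Elane on 10, Mpo on 11 and Retnlg on 16. Mpo overlaps Gm11505 on the opposite strand, so the reads of these genes cannot be told apart without a strand setting. The transcripts differ in length, from 522 exonic bases for S100a9 to 3450 for Ltf, and levels of different genes are therefore ranked only per kb of exon. Ratios of counts between genes are not corrected for length and serve to compare populations.

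The 250 bases before the RefSeq start of transcription, which can differ from the GENCODE gene start above, are shown for 7 members because these genes carry the results: S100a8 with S100a9 and Ngp with Camp and Ltf went up and down together between libraries, while Mmp8 and Retnlg were called between populations. The sequences are those of RefSeq on GRCm38.p6, where all 10 members had an entry, written 5′ to 3′ on the strand of the gene. Capitals mark matches, on either strand, to 2 motifs of factors that act in myeloid cells: TTGCNNAA for C/EBP proteins and GAGGAA for PU.1.
S100a8 (chr3:90668821-90669070, plus strand): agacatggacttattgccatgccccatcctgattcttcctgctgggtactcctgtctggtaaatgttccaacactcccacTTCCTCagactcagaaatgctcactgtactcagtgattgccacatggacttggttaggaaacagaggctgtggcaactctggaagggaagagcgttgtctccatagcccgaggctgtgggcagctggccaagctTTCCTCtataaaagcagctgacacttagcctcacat
S100a9 (chr3:90695722-90695971, minus strand): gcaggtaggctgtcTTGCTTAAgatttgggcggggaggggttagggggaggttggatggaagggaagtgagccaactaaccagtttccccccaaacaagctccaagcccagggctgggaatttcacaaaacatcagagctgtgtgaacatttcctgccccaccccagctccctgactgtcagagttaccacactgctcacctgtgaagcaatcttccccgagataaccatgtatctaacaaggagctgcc
Ngp (chr9:110419558-110419807, plus strand): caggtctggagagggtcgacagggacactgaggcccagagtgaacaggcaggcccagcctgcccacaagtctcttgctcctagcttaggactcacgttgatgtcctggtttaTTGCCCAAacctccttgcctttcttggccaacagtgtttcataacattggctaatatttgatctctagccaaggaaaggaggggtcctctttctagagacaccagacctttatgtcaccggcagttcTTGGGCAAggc
Camp (chr9:109849457-109849706, minus strand): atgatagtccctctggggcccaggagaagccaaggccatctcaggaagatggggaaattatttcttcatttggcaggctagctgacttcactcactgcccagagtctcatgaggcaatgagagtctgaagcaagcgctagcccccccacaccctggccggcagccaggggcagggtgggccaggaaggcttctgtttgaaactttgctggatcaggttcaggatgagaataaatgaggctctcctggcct
Ltf (chr9:111019042-111019291, plus strand): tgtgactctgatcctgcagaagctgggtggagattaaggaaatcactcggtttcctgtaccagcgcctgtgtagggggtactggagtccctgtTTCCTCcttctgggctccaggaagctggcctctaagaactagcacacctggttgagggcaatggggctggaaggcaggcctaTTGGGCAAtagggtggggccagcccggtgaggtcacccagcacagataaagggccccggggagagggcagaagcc
Mmp8 (chr9:7558179-7558428, plus strand): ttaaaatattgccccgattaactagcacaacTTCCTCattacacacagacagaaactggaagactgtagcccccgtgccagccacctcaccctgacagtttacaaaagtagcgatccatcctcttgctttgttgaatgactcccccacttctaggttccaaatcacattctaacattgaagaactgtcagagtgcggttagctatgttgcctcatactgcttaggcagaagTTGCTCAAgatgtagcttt
Retnlg (chr16:48872358-48872607, plus strand): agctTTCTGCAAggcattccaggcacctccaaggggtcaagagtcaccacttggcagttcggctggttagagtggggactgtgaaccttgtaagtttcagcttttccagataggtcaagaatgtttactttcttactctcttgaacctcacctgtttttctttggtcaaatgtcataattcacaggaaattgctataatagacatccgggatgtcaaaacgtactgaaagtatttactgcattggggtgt
The C/EBP motif was found in 6 of the 10 members (S100a9, Ngp, Ltf, Lcn2, Retnlg and Mmp8) and in 9.56% of 32851 promoter windows of the same length. The PU.1 motif was found in 6 of the 10 (S100a8, Ltf, Lcn2, Mmp8, Mpo and Elane) and in 23.3% of all windows. Ltf, Lcn2 and Mmp8 held both, and the Camp window held neither. A match describes these letters and is not evidence that a factor binds there.

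Each value below is a count scaled by trimmed mean of M-values (TMM) to counts per 1000000 (CPM) for 1 mouse in 1 population. There were 28 such replicates, 6 from blood and 22 from brain, with 1553616 to 5689644 counts on genes each. The gene of the receptor that marks mononuclear phagocytes, Csf1r, averaged 2814 to 3563 CPM in every population. Markers of macrophages summed to 10946 to 32106 CPM in the brain and to at most 5202 CPM in blood. The paper sorted blood monocytes by high CD45 and CD115, low CD11c and their level of Ly6C. It sorted brain cells by high CD11b and CD45, by Ly6C and by the surface marker encoded by Adgre1. No antibody against Ly6G, the neutrophil surface protein, is named for the sort. How far these gates kept neutrophils out was not tested. The 18 neutrophil marker genes summed to 225 to 2378 CPM, led in Ly6Chigh monocytes by Cd177 (1286 CPM on average) and Csf3r (424 CPM), which monocytes also express. Of the 18, 11 passed the filter on low counts. Among these, Trem1 had over 3 counts in 28 replicates, Hdc in 27, Il1r2 and G0s2 in 26 each and Mmp9 in 25. By contrast, Stfa2, Stfa3, BC100530 and Cxcr1 never passed 3 counts in a replicate. Ly6g itself was found with over 3 counts in 9 of 28 replicates and reached 8.57 CPM at most. Of the 10 members, 8 passed the filter on low counts. Mpo and Elane did not and were not tested.

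**Figure D1:**
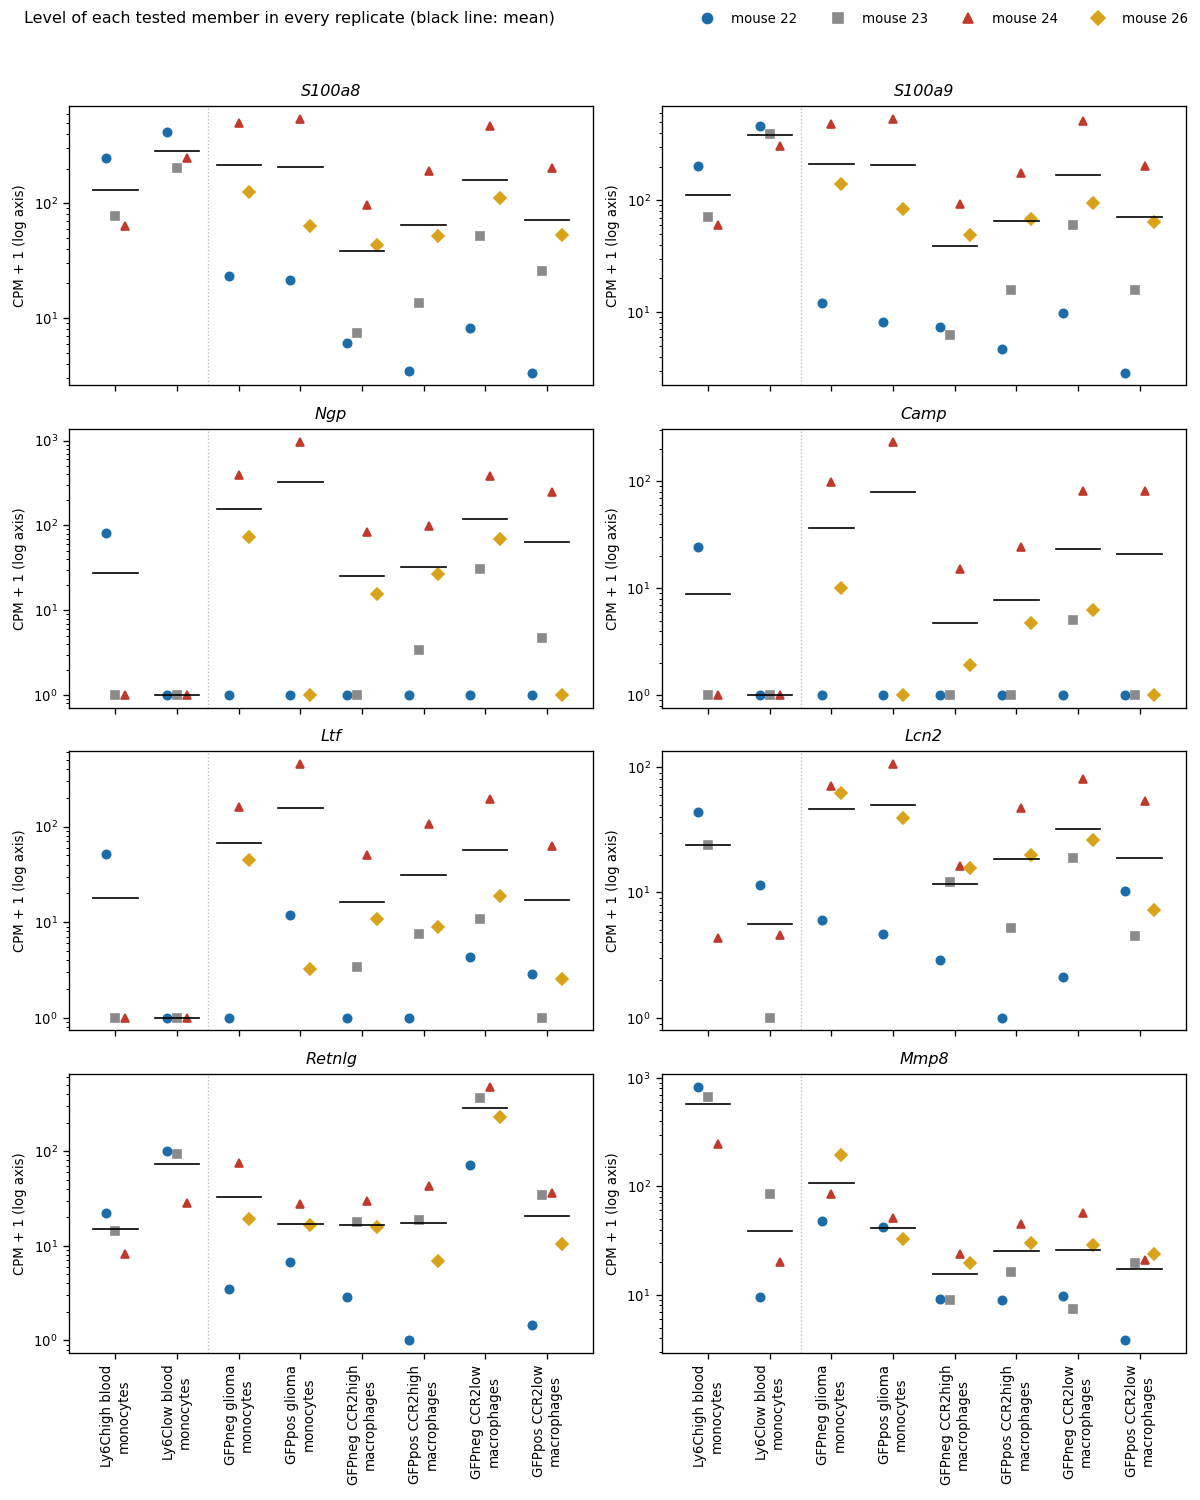
TMM-scaled CPM plus 1 (log axis) of the 8 tested members in each of the 28 replicates, by population, with a symbol for each mouse and a black line at the mean of the CPM, and the dotted line divides blood from brain. Mouse 24 is the highest point in all 6 brain populations for every member but Mmp8, Mmp8 is highest in Ly6Chigh blood monocytes (244 to 829 CPM), and Retnlg in GFPneg CCR2low macrophages (71.0 to 479 CPM).

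S100a8 and S100a9, the pair that forms calprotectin, were present in all 28 replicates. In blood, S100a8 stood at 245, 76.7 and 62.7 CPM in the Ly6Chigh monocytes of mice 22, 23 and 24 and at 413, 199 and 245 CPM in their Ly6Clow monocytes. The level was higher in the Ly6Clow cells of each of the 3 mice, although the ranges overlapped. In the glioma monocytes of mice 22, 24 and 26, S100a8 stood at 22.1, 493 and 123 CPM without GFP and at 20.6, 539 and 61.9 CPM with it. Mouse 24 was far above the others in both, and mouse 22 far below. In the CCR2high macrophages of mice 22, 23, 24 and 26 the values were 5.05, 6.42, 96.0 and 42.3 CPM without GFP and 2.48, 12.6, 189 and 50.8 CPM with it. In the CCR2low macrophages they were 7.16, 50.7, 468 and 109.7 CPM without GFP and 2.34, 24.4, 201 and 52.3 CPM with it. In each of these 4 macrophage populations mouse 22 was lowest and mouse 24 highest, and the 4 populations overlapped in range.

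S100a9, the partner of S100a8 in calprotectin, followed it closely. The ratio of S100a9 to S100a8 counts had a median of 1.04 over the 28 replicates (0.347 to 1.97), and log2 CPM of the pair gave a Pearson correlation of 0.98 across them, replicates that share 4 mice. The highest mean of S100a9 was in Ly6Clow monocytes, 384 ± 77.0 CPM (SD, n = 3), against 110.4 ± 80.1 CPM (n = 3) in Ly6Chigh monocytes. There its values were 456, 393 and 302 CPM in mice 22, 23 and 24, against 203, 69.1 and 59.4 CPM. All 3 Ly6Clow values were above all 3 Ly6Chigh values. The log2 fold change of Ly6Chigh against Ly6Clow cells was -1.80 (SE 1.47) for S100a9 and -1.16 (SE 1.41) for S100a8, and neither passed the test (adjusted p = 0.505 and 0.682). Scaled by the spike-in RNAs, which moved the median of all genes in this comparison from 0.023 to 1.81, these values became 0.12 and 0.58. Markers of other cells also differed. In Ly6Clow monocytes those of T and NK cells summed to 705 to 1027 CPM, against 18.2 to 138 CPM in Ly6Chigh monocytes. Those of dendritic cells summed to 350 to 1774 against 99.6 to 209 CPM, and of B cells to 244 to 443 against 58.7 to 110 CPM. Those of neutrophils, microglia and erythroid cells had lower medians in Ly6Clow monocytes. Their part in the levels of S100a8 and S100a9 was not tested. The order of the population means was the same for both genes, from Ly6Clow monocytes through the glioma monocytes down to GFPneg CCR2high macrophages (37.4 ± 42.7 CPM for S100a8, n = 4), and every pair of neighbours in that order overlapped in range.

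The specific granule genes Ngp, Camp and Ltf were found in some libraries and at 0 in others, and Ltf kept less closely to Ngp and Camp. Ngp, a cystatin-like protein of the specific granule, was at 0 in 14 of the 28 replicates. In blood it stood at 80.3 CPM in the Ly6Chigh monocytes of mouse 22 and at 0 in the other 5 replicates. In the glioma monocytes of mice 22, 24 and 26 it stood at 0, 391 and 72.9 CPM without GFP and at 0, 975 and 0 CPM with it. The 975 CPM in mouse 24 was the highest Ngp value of the 28 replicates. In the macrophages of mice 22, 23, 24 and 26 Ngp stood at 0, 0, 82.8 and 14.6 CPM (GFPneg CCR2high) and at 0, 2.4, 97.6 and 25.6 CPM (GFPpos CCR2high). The CCR2low macrophages gave 0, 29.7, 378 and 67.5 CPM without GFP and 0, 3.72, 250.4 and 0 CPM with it. Mouse 22 had no Ngp count in any of its 6 brain populations, and mouse 24 had 82.8 CPM or more in all 6. A count of 0 here allows up to 3 counts in the replicate.

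Camp, the precursor of the antimicrobial peptide cathelicidin, was above 0 in 12 replicates, all of them replicates with Ngp, and Ngp had 3.11 to 16 times its counts there. Log2 CPM of Camp and Ngp gave a Pearson correlation of 0.961 across the 28 replicates. Camp reached 235 CPM in the GFPpos glioma monocytes of mouse 24 and 98.5 CPM in the GFPneg ones. In the 4 macrophage populations of mouse 24 it stood between 14.2 and 80.5 CPM, against at most 5.27 CPM in the other mice. Ltf, an iron-binding protein, was above 0 in 19 replicates and reached 449 CPM, again in the GFPpos glioma monocytes of mouse 24. Some replicates held Ltf without Ngp or Camp, with 53 counts in GFPpos glioma monocytes of mouse 22 and 12 in GFPneg CCR2high macrophages of mouse 23. In the GFPpos CCR2low macrophages of mouse 23 Ngp had 16 counts and Ltf none. In blood Ltf was seen at 51.1 CPM in the same Ly6Chigh replicate of mouse 22 as Ngp and Camp (23.6 CPM), and at 0 in the other 5. Thus all 3 genes were at 0 in every Ly6Clow replicate, the population with the highest mean of S100a8 and S100a9. Lcn2, which binds bacterial siderophores, was spread more evenly, with over 3 counts in 24 replicates and a median of 12.9 CPM. Its highest value was 104.9 CPM, in the GFPpos glioma monocytes of mouse 24, and its lowest population mean was 4.64 ± 5.27 CPM (n = 3), in Ly6Clow monocytes.

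**Figure D2:**
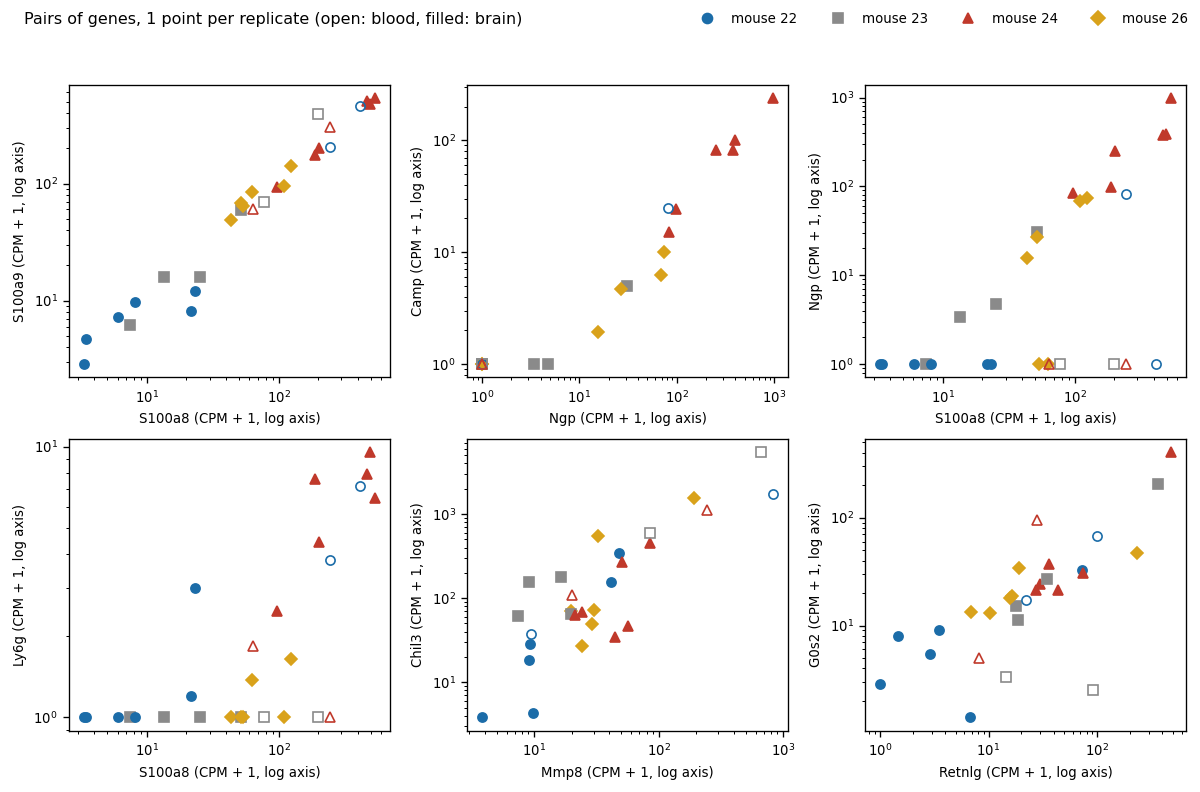
Pairs of genes plotted against each other as CPM plus 1 on log axes, 1 point per replicate, open for blood and filled for brain, with a symbol for each mouse. S100a8 and S100a9 lie on 1 line, Camp is above 0 in replicates that also hold Ngp, 5 of the 6 blood replicates hold S100a8 without Ngp, Ly6g stays under 8.6 CPM, and the lower panels show Mmp8 against Chil3 and Retnlg against G0s2.

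In blood, Ngp, Camp and Ltf were therefore a matter of 1 replicate. Set against the limit of 3 counts over the Ly6Clow group, their mean level in Ly6Chigh monocytes was at least 23.2-fold (Ngp), 6.82-fold (Camp) and 14.8-fold (Ltf) higher, but without mouse 22 both populations were at 0. None of the 3 passed the test without the mouse as a term (adjusted p = 0.322, 0.355 and 0.231). With the mouse as a block Ltf passed it (adjusted p = 0.0441), and with DESeq2 in place of edgeR all 3 did. The shares of all genes called in these fits are not given here. The Ly6Chigh replicate of mouse 22 also held 5 counts of Ly6g, but the Ly6Clow replicate of the same mouse held 13 and no count of Ngp, Camp or Ltf. The 18 neutrophil markers summed to 1380 to 2378 CPM in Ly6Chigh and to 497 to 755 CPM in Ly6Clow monocytes, but they did not all go 1 way. By mean, Cd177 (1286 against 105 CPM) and Csf3r (424 against 180 CPM) were higher in Ly6Chigh monocytes. Mmp9 (22.5 against 103 CPM), Cxcr2 (15.3 against 25.6 CPM) and Ly6g (1.22 against 2.04 CPM) were lower there. Over the 11 tested markers the median log2 fold change was -0.71, and 1 (Csf3r) was called, higher in Ly6Chigh monocytes, beside 1.96% of all genes in that direction. The Ly6Clow replicate of mouse 23 had the highest share of spike-in reads of the replicates (13.3%) and only 6475 genes with 5 reads or more, so that a gene at 0 there is weak evidence.

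Mpo and Elane, the azurophil granule genes, were near or at 0 almost everywhere. Mpo had 5 and 19 counts (2.68 and 12.3 CPM) in the GFPneg glioma monocytes of mice 24 and 26, and 3 counts or fewer in the other 26 replicates. Elane had 25 and 11 counts (13.4 and 7.10 CPM) in the same pair of replicates, and 2 counts or fewer in the other 26. The GFPneg glioma monocytes of mouse 22 and all GFPpos glioma monocytes held none. Against the limit of 3 counts over the GFPpos group, the GFPpos glioma monocytes were at least 3.95-fold lower for Mpo and at least 5.42-fold lower for Elane. These are bounds on low counts from 2 of 3 mice, with no test. Prtn3, the azurophil gene next in kind to Elane, was more widely found. It had 45, 60 and 34 counts in the Ly6Chigh monocytes of mice 22, 23 and 24, 53 in the GFPpos glioma monocytes of mouse 22 and 55 in the GFPneg glioma monocytes of mouse 26.

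Mmp8, a collagenase of the specific granule, had a different distribution from the other members of that granule. It stood at 829, 660.2 and 244 CPM in the Ly6Chigh monocytes of mice 22, 23 and 24 and at 8.49, 84.4 and 19.2 CPM in their Ly6Clow monocytes. Each Ly6Chigh value was above each Ly6Clow value. In the glioma monocytes of mice 22, 24 and 26 it stood at 46.7, 84.1 and 192 CPM without GFP and at 40.8, 49.7 and 31.5 CPM with it. All 6 were below the lowest Ly6Chigh replicate. The macrophages were lower again, from 2.81 to 56.0 CPM over their 16 replicates. The ratio of Mmp8 to S100a8 counts was 3.38 to 8.60 in Ly6Chigh monocytes and 0.0206 to 0.424 in Ly6Clow monocytes, so that these genes ran in opposite directions between the blood populations within each mouse.

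Mmp8 was the member that passed the test between the blood populations. It was higher in Ly6Chigh monocytes by 3.95 (SE 0.88) on the log2 scale (adjusted p = 0.0072), in 3 of 3 mice. It was thus 1 of 10 members called, where 5.61% of the 11566 tested genes were called, 1.96% of them in this direction. Its replicates did not overlap, as held in this direction for 10.6% of genes. Those of Retnlg and S100a9 did not overlap in the other direction, as held for 7.23%. The median log2 fold change of the 8 tested members was 3.13, against 0.023 for all genes, and 2.54 with Ngp, Camp and Ltf at their bounds. The Mmp8 call was lost with only the blood libraries in the fit (log2 fold change 3.93, adjusted p = 0.328) and without mouse 22 (3.26, adjusted p = 0.096).

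Set against Ly6Chigh blood monocytes, Mmp8 was also lower in each brain population compared. In GFPneg glioma monocytes the log2 fold change was -2.43 (SE 0.82, adjusted p = 0.0477), and Mmp8 was the 1 member called, where 13.8% of genes were called, 2.68% lower. That call was borderline: it was lost under 6 alternatives, among them spike-in scaling (-1.95, adjusted p = 0.544), and without any of 4 single replicates. In GFPpos glioma monocytes it was -3.83 (SE 0.87, adjusted p = 0.00222), again the 1 member called beside 23.1% of genes, 6.07% lower. In GFPneg CCR2high macrophages it was -5.31 (SE 0.83, adjusted p = 3.92e-05), the 1 member called beside 17.8% of genes, 5.14% lower. In GFPneg CCR2low macrophages it was -4.55 (SE 0.80, adjusted p = 0.000146), and there 2 members were called, Mmp8 lower and Retnlg higher, beside 20.2% of genes (6.09% lower and 14.1% higher). The replicates of Mmp8 lay wholly below Ly6Chigh monocytes in all 4 comparisons, as did those of 14%, 15.5%, 13.9% and 14.1% of genes in the same order, and those of Retnlg wholly above in the last, as did those of 21.1%. The median log2 fold changes of the 8 tested members were 1.09, 0.99, -1.07 and 1.08 in that order, against 0.12, 0.22, 0.15 and 0.17 for all genes. These 4 comparisons share the 3 Ly6Chigh replicates, so a high Mmp8 level in those replicates enters all of them.

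The second member called in GFPneg CCR2low macrophages was Retnlg, and these cells had the highest mean of it in the series. Retnlg stood at 71.0, 360.5, 479 and 229.9 CPM in the GFPneg CCR2low macrophages of mice 22, 23, 24 and 26. In the GFPpos CCR2low macrophages of the same mice it stood at 0.469, 33.3, 35.1 and 9.42 CPM. The groups did not overlap, and the GFPneg value was higher in 4 of 4 mice. In the CCR2high macrophages it stood at 1.89, 16.8, 28.9 and 14.9 CPM without GFP and at 0, 17.6, 42.2 and 5.82 CPM with it. Glioma monocytes held 2.51, 73.9 and 18.1 CPM without GFP and 5.71, 26.6 and 15.4 CPM with it in mice 22, 24 and 26. In blood it stood at 21.3, 13.5 and 7.11 CPM in Ly6Chigh and at 98.1, 91.4 and 27.2 CPM in Ly6Clow monocytes. In each of the 4 mice the GFPneg CCR2low macrophages held the highest brain value. The ratio of Retnlg to S100a8 counts there was 1.02 to 9.92 (median 4.60), against 0.087 to 0.458 in blood and at most 0.277 in glioma monocytes. The other macrophages overlapped it in range. The ratio reached 2.625 in GFPneg CCR2high, 1.40 in GFPpos CCR2high and 1.36 in GFPpos CCR2low macrophages, with medians of 0.363, 0.169 and 0.19.

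Against Ly6Chigh blood monocytes, Retnlg was higher in GFPneg CCR2low macrophages by 4.37 (SE 1.21) on the log2 scale (adjusted p = 0.0108), and by 3.65 (adjusted p = 0.0125) with the mouse as a block. The call was lost with spike-in scaling (4.06, adjusted p = 0.0866), without the Ly6Chigh replicate of mouse 23 (4.31, adjusted p = 0.0537) or of mouse 24 (4.03, adjusted p = 0.0673), and without mouse 24 altogether (3.62, adjusted p = 0.103). Within the brain Retnlg missed the threshold in each comparison run. Against GFPneg CCR2low macrophages the log2 fold change was -4.17 (SE 1.05, adjusted p = 0.672) in GFPneg CCR2high macrophages and -3.84 (SE 1.03, adjusted p = 1) in GFPpos CCR2low macrophages. In both comparisons the replicates did not overlap, as held in the same direction for 1.63% and 1.7% of genes. G0s2, a gene of mature neutrophils that also acts in fat breakdown, was likewise higher in GFPneg CCR2low macrophages than in Ly6Chigh monocytes, by 4.54 (SE 1.23, adjusted p = 0.00913). Of the 18 neutrophil markers, 7 to 12 were found with over 3 counts in each of the GFPneg CCR2low replicates, and their sum was 381 to 909 CPM. In mice 22, 23, 24 and 26 these replicates held 0, 0, 15 and 0 counts of Ly6g, 1, 17, 27 and 43 of Cxcr2, a chemokine receptor of neutrophils, and 8, 175, 195 and 74 of Mmp9. Markers of B cells summed to 98.6 to 925 CPM there, those of T and NK cells to 711 to 1445 CPM, those of eosinophils to 38.0 to 181 CPM and those of microglia to 2457 to 6817 CPM. Each of these 4 lists had its highest population median in the brain in these cells, except that of T and NK cells, which was higher in GFPpos glioma monocytes. The part of any of these cells in the Retnlg level was not tested.

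For S100a8 and S100a9 the comparison of brain with blood turned on how the mice were treated. Without a mouse term, S100a9 in GFPneg glioma monocytes stood 0.93 (SE 1.44) above Ly6Chigh monocytes on the log2 scale. With the mouse as a block it stood at -1.96 (SE 1.08, adjusted p = 0.261). GFPpos glioma monocytes gave 0.90 and -2.22, and GFPneg CCR2low macrophages gave 0.60 and -1.80. In GFPneg CCR2high macrophages both fits gave a negative value. There S100a8 stood at -1.78 (SE 1.32, adjusted p = 0.411) without the block and was lower by the test with it, at -3.79 (SE 1.01, adjusted p = 0.00848). S100a9 likewise stood at -1.55 (SE 1.35) and was called at -3.85 (SE 1.03, adjusted p = 0.00873) with the block. With the block, then, 3 members were called lower in these cells, where 21.2% of genes were called in either direction. The share called lower with the block is not given here, and without the block it was 5.14%. The mouse numbers are those of the animals, and only mice 22 and 24 gave both blood and glioma monocytes. For both genes mouse 22 stood highest of the mice in blood and lowest of them in the glioma monocytes. Without mouse 24 and with the block, a setting chosen after the data were seen, S100a9 was called lower than in Ly6Chigh monocytes in all 4 brain populations, at -3.24 (adjusted p = 0.0289) in GFPneg and -3.97 (adjusted p = 0.00695) in GFPpos glioma monocytes. Mouse 24 held the highest S100a9 value in every brain population, so leaving it out lowers the brain values. Only mouse 22 then gave both blood and glioma monocytes, and no conclusion is drawn from this setting.

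**Figure D3:**
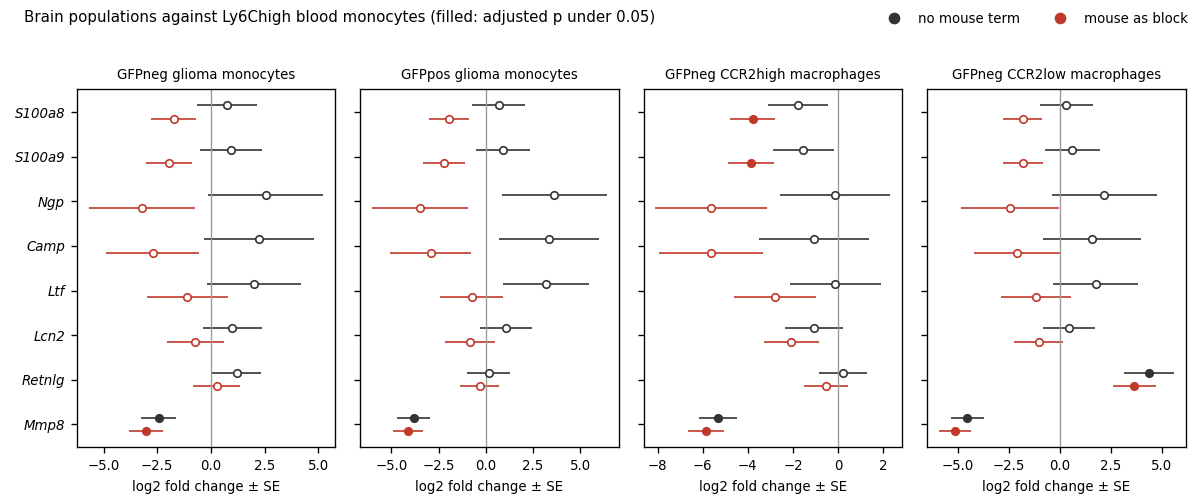
Log2 fold change (points) with its standard error (bars) of the 8 tested members in 4 brain populations against Ly6Chigh blood monocytes, without a mouse term (black) and with the mouse as a block (red), where filled points passed an adjusted p of 0.05. Mmp8 is negative in all 4 panels in both fits, while S100a8, S100a9, Ngp, Camp, Ltf and Lcn2 change side with the block in the panels of glioma monocytes and CCR2low macrophages.

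Within the brain, no member was called by edgeR in any comparison when all populations were fitted together. Between GFPneg glioma monocytes and GFPneg CCR2high macrophages 0 members were called beside 0.182% of genes, with 1 at an unadjusted p under 0.05, as held for 5.38% of genes. That member was Mmp8, 2.88 (SE 0.77) higher in the monocytes and not overlapping, as were 6.14% of genes (adjusted p = 0.148), and it was called by DESeq2 (adjusted p = 0.0224) and by edgeR with these populations alone (2.86, SE 0.54, adjusted p = 0.0473). Against GFPneg CCR2low macrophages 0 were called beside 1.21% of genes, with 2 under 0.05 beside 8.46% of genes, Mmp8 at 2.12 and Retnlg at -3.18. Between the GFPneg CCR2high and CCR2low macrophages 0 members and 0% of genes were called, with 1 member under 0.05, Retnlg, beside 2.39% of genes. S100a8, S100a9, Ltf and Retnlg stood lower in the CCR2high cells in 4 of 4 mice there, by medians of 1.82, 1.71, 1.84 and 4.19 on the log2 scale. The GFPpos glioma monocytes against GFPpos CCR2high and CCR2low macrophages gave 0 members each, beside 0.0173% and 0.164% of genes, and 0 members under 0.05 beside 5.82% and 6.62%. Mmp8 stood wholly higher in the monocytes in the second of these, as did 4.47% of genes. DESeq2 called no member in these last 4 comparisons.

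The presence of tumor membrane did not separate the members by the test. Between GFPpos and GFPneg cells 0 members and 0% of genes were called by edgeR in glioma monocytes, in CCR2high macrophages and in CCR2low macrophages, and DESeq2 called 0 members as well. Under an unadjusted p of 0.05 there were 0, 0 and 1 members, the last being Retnlg, beside 6.39%, 0.597% and 1.59% of genes. S100a8 differed by -0.05 (SE 1.39) on the log2 scale in glioma monocytes, where spike-in scaling gave -2.35 and moved the median of all genes to -1.47. It differed by 0.76 (SE 1.24) in CCR2high macrophages, which spike-in scaling turned to -0.08, and by -1.17 (SE 1.23) in CCR2low macrophages. These errors leave room for differences of several fold in either direction. In the CCR2low macrophages S100a8, S100a9, Ltf and Retnlg stood lower in the GFPpos cells in 4 of 4 mice, a direction that spike-in scaling turned for S100a8 (0.13) and S100a9 (0.15), where it moved the median of all genes from 0.016 to 0.323. The GFP difference in glioma monocytes minus that in CCR2low macrophages was called for 0 members and 0% of genes, with 0 members under 0.05 beside 3.41% of genes and 0 by DESeq2.

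The members also differed between mice. In the brain, 7 of the 8 tested members (all but Mmp8) were highest in mouse 24 in each of the 6 populations. That held for 0.83% of the 11566 tested genes. Mouse 22 was lowest in all 6 populations for S100a8 and Retnlg, which held for 0.251% of genes, and in 5 of 6 for S100a9 and Lcn2. The medians over the brain populations of mice 22, 23, 24 and 26 were 6.10, 18.5, 334 and 57.1 CPM for S100a8. For Ngp they were 0, 3.06, 314 and 20.1 CPM. In blood the order differed, and mouse 22 held the highest S100a8 and S100a9 values of both populations.

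**Figure D4:**
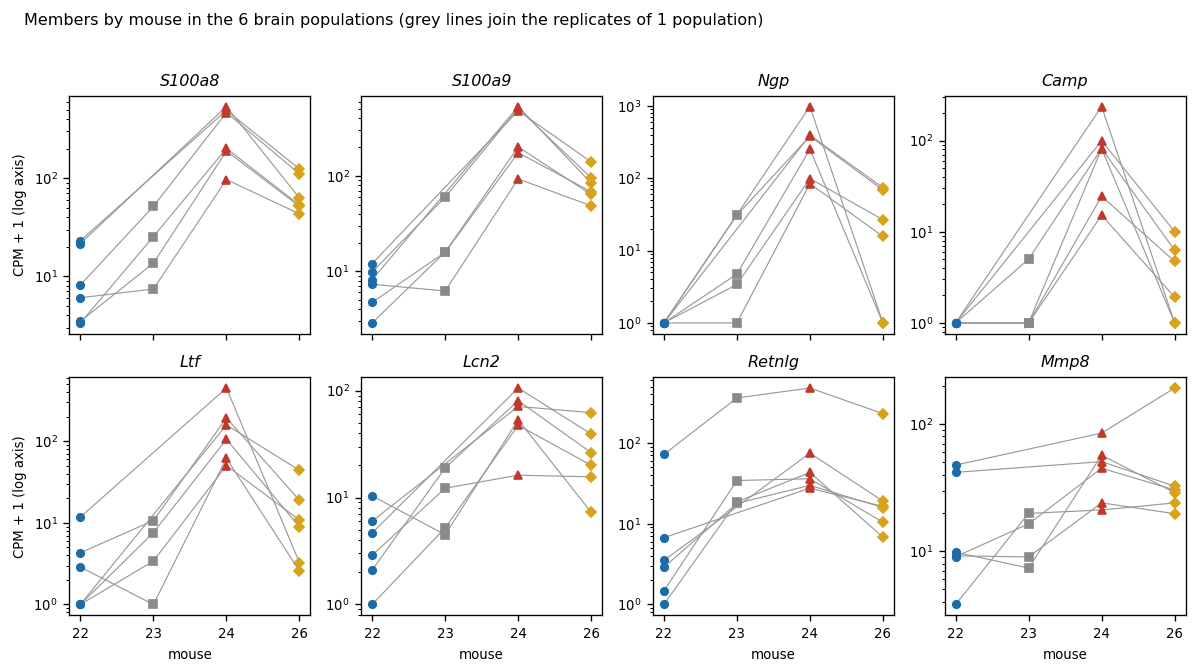
TMM-scaled CPM plus 1 (log axis) of each tested member in the brain, by mouse, with grey lines joining the replicates of 1 population. For 7 members every line that reaches mouse 24 peaks there, while the lines of Mmp8 peak at mouse 24 in 4 of 6 populations and the Retnlg line of GFPneg CCR2low macrophages runs above the others.

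A mouse term beside population, fitted over the 22 brain replicates and chosen after this order had been seen, was called for all 8 tested members, where it was called for 19.6% of genes. The adjusted p was 8.07e-10 for S100a9, 5.19e-09 for S100a8, 1.90e-05 for Retnlg and 7.73e-05 for Ltf. It was 0.000295 for Camp, 0.000351 for Lcn2, 0.00283 for Ngp and 0.0147 for Mmp8. Without mouse 24 it was called for 6 members beside 15.1% of genes, and Camp (adjusted p = 0.127) and Ltf (0.376) were lost. The populations of a mouse came from 1 brain, so the term compares 4 brains. Its p-values are set against the spread left between populations of the same brain, not between animals. The animal, its tumor and the handling of its tissue cannot be told apart.

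Marker genes of other cells were set beside this order. Ly6g was highest in mouse 24 in all 6 brain populations, with 3 to 16 counts, against at most 4 counts in the other mice, and it passed the mouse term (adjusted p = 0.000502). Of the 18 neutrophil markers 11 were tested and, beside 19.6% of genes, 9 passed it. They did not all point to mouse 24: Cxcr2 was highest in mouse 26 in all 6 populations, and the sum over the 18 was highest in mouse 26 in 5 of 6 and in mouse 24 in 1. The summed markers of B cells (233 to 925 CPM in mouse 24, 37.1 to 382 CPM in the others), of dendritic cells and of microglia were also highest in mouse 24 in all 6 populations, and those of eosinophils (up to 181 CPM) and of basophils and mast cells (up to 166 CPM) in 5 of 6. Those of macrophages were highest in mouse 22 in all 6 and those of platelets in mouse 26. The part of any of these cells in the member levels was not tested.

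The members differed in how closely they kept to each other. Across the 22 brain replicates Ngp and S100a8 gave a Pearson correlation of 0.88 on the log2 scale, but 0.618 once the 6 blood replicates were added, where S100a8 was high and Ngp at 0 in all but 1. Ly6g and S100a8 gave 0.766 in the brain. Mmp8 gave 0.254 with Ngp and 0.527 with S100a8 over the 28, and 0.545 and 0.75 over the 22 brain replicates. These are descriptions, since replicates share mice and sorts. By mean CPM per kb of exon, S100a9 was the most abundant member in Ly6Clow monocytes (735), glioma monocytes and CCR2high macrophages. By the same means Mmp8 led in Ly6Chigh monocytes (238, against 212 for S100a9) and Retnlg in GFPneg CCR2low macrophages (481). Single mice differed: in Ly6Chigh monocytes S100a9 stood above Mmp8 in mouse 22 (389 against 342) and mouse 24 (114 against 101). In the GFPneg CCR2low macrophages of mouse 24 S100a9 stood above Retnlg (971 against 807).

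Outside the members, the closest patterns over the 28 replicates, among the 8126 genes that averaged 10 CPM or more, were those of Mmp9 for S100a8 (Pearson correlation 0.784) and S100a9 (0.801). Mmp9 encodes gelatinase B, the protease of a later granule. For Mmp8 they included Chil3 (0.847) and Cd177 (0.80), genes of Ly6Chigh monocytes and neutrophils alike. For Retnlg they were G0s2 (0.718) and Alox15 (0.715). For Camp and Ltf it was Gpr183 (0.707 and 0.702) and for Ngp Ccr3 (0.665). For Lcn2 it was Olr1 (0.658). The lists moved with the measure: of the 5 closest genes, 4 were shared by Pearson and Spearman for S100a8, and 1 for Ngp and for Lcn2. With the 22 brain replicates alone 2 of the 5 were kept for S100a8, S100a9 and Retnlg, 1 for Ltf and 0 for Ngp, Camp, Lcn2 and Mmp8.

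Other genes of the granule and alarmin pathways were taken from lists. Of 18 further granule and maturation genes, 13 were tested. In GFPneg CCR2high macrophages against Ly6Chigh monocytes 1 rose and 8 fell, among them haptoglobin (Hp, 38.7 against 1816 CPM, log2 fold change -5.54, SE 0.63, adjusted p = 4.91e-07) and Chil3 (79.1 against 2778 CPM, -5.12, SE 1.03, adjusted p = 0.000699). The gene that rose there was Mmp25, a membrane-bound protease of neutrophils (25.6 against 0.862 CPM, adjusted p = 2.97e-05). In GFPneg CCR2low macrophages 1 rose and 7 fell, and in GFPneg and GFPpos glioma monocytes 1 rose and 5 fell each. Of all tested genes, 17.8%, 20.2%, 13.8% and 23.1% were called in these comparisons, in the order given, and 5.14%, 6.09%, 2.68% and 6.07% were called lower. Within the brain Hp and Mcemp1 were higher in GFPneg glioma monocytes than in GFPneg CCR2low macrophages, by 4.28 (SE 0.61, adjusted p = 0.000165) and 2.83 (SE 0.32, adjusted p = 1.14e-05). Between the blood populations Pglyrp1, a bactericidal granule protein, was lower in Ly6Chigh than in Ly6Clow monocytes (94.7 against 795 CPM, -3.07, SE 0.51, adjusted p = 0.000548).

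Of the 18 neutrophil markers, 11 were tested, and the calls went both ways. Against Ly6Chigh monocytes, Trem1 and Il1r2, an activating receptor and a decoy receptor for interleukin 1 that are found on neutrophils and monocytes alike, rose in all 4 brain populations compared (Il1r2 by 5.02, SE 1.03, adjusted p = 0.0012 in GFPneg glioma monocytes). Cd177 fell in GFPpos glioma monocytes and in both macrophage populations, from 1286 CPM to 69.5, 7.24 and 11.8 CPM. In all, 2 rose and 0 fell in GFPneg glioma monocytes, 2 rose and 3 fell in GFPpos glioma monocytes and in GFPneg CCR2high macrophages, and 3 rose and 2 fell in GFPneg CCR2low macrophages. The shares of all genes called in these 4 comparisons were 13.8%, 23.1%, 17.8% and 20.2% in the same order.

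Of 11 other S100 genes, 8 were tested. S100a4 and S100a6, which are not stored in granules, fell by 3.57 (SE 0.56) and 2.23 (SE 0.38) on the log2 scale in GFPneg CCR2high macrophages against Ly6Chigh monocytes (adjusted p = 3.76e-05 and 0.000106). S100b and S100a16 rose there from a Ly6Chigh level of 0. Of 12 receptors and inhibitors of the member proteins, 10 were tested, and 3 or 4 rose in each of the 4 brain populations compared with Ly6Chigh monocytes. In these comparisons 13.8 to 23.1% of all genes were called in either direction. The receptors and inhibitors that rose included Timp1, an inhibitor of Mmp8 and Mmp9, at 71.9 CPM in GFPneg glioma monocytes against 0. Slpi, an inhibitor of elastase, was higher in GFPneg glioma monocytes than in GFPneg CCR2high macrophages (238 against 18.5 CPM, 3.67, SE 0.71, adjusted p = 0.0206). Of 13 progenitor and lineage factors, 11 were tested. Kit and Cd34, which mark progenitors but are also found on mast cells and vessel cells, rose in the same 4 populations (Kit at 14.3 to 25.3 CPM against 0), where basophil and mast cell markers summed to 0 to 166 CPM, against at most 2.07 CPM in blood.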

How the data were processed

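Per the labels and the study's methods, cells were sorted from 4 mice, 500 pg of RNA per sample was made into cDNA libraries (SMARTer, Nextera XT), and 75-base read pairs were aligned to the mouse genome with STAR, stripped of duplicates with Picard (1.8.4) and counted per gene with htseq-count. The authors deposited whole-number counts per gene and per spike-in RNA for each library, which are not normalized. The submitters' processing notes name the build GRCm38.p3. No strand setting is given in the sources used here. Removal of duplicates can limit the counts of short, abundant transcripts, and its effect was not tested. Rows without a feature took 6.28 to 17.4% and ambiguous rows 1.58 to 1.90% of reads, and both stayed out of library sizes. Of 30 libraries, 1 (Ly6Clow monocytes, mouse 23) had fewer than 6000 genes with 5 reads, the study's own quality rule, and was left out. Both libraries of GFPpos glioma monocytes of mouse 22 were summed, which left 28 replicates. Library sizes were 1553616 to 5689644 counts (median 2140230). A count of 0 allows up to 3 counts, and such limits cover counting error only.

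Differences were tested with edgeR's quasi-likelihood test (4.0.16, TMM, filterByExpr, R 4.3.3) on 11566 genes over all 8 populations, with Benjamini-Hochberg adjustment over all of them and a threshold of 0.05. The script was tested on simulated data. DESeq2 (1.42.0), other scalings including 92 spike-in RNAs, other filters, fits on the compared populations alone, leaving out single replicates, and the mouse as a block were alternatives. Replicates with the same mouse number came from the same animal, so the numbers pair the samples. Deviations from the population means gave a median correlation of 0.136 over 86 pairs of the same mouse and of -0.0303 over 256 pairs of different mice. A mouse term over the brain replicates and leaving out whole mice were added after the data were seen. Whether samples of different mice were handled on different days is not given in the sources used here. Without a mouse term, p-values therefore measure the spread between these animals and their handling together. With the mouse as a block, and for the mouse term itself, they measure the spread left within mice. Members and lists were chosen with earlier results of these data known. By rule, genes named outside the members came from those lists where they passed the test, or were among the 5 most alike in log2 CPM over the 28 replicates. Csf1r and the neutrophil markers Ly6g, Cxcr2, Cxcr1, Stfa2, Stfa3 and BC100530, as well as Prtn3, are named outside that rule, as marker checks chosen after their values were seen. A result on 1 of these genes is not reported here. Gene positions are from GENCODE vM21, which matched 10 of 10 members by symbol, and promoters from RefSeq (GRCm38.p6).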

Additional observations from a re-analysis of the deposited data

Results flagged for a closer look

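Among the 32 groups of 4 macrophage replicates, 1 value stood apart from the other 3 in 10 of them by Dixon's criterion, and all 10 values were those of mouse 24. Chance meets the criterion in about 1 of 20 groups of normally distributed values. These CPM values are skewed and often 0, so that rate does not hold for them. The flags restate the order of the mice given above and add no support to it. Camp stood apart in all 4 macrophage populations, at 14.2 CPM against 0 to 0.915 CPM (GFPneg CCR2high), 23.5 against 0 to 3.73 CPM (GFPpos CCR2high), 80.5 against 0 to 5.27 CPM (GFPneg CCR2low) and 80.5 CPM against 0 (GFPpos CCR2low). Ltf did so in 3 of them, at 104.8 CPM against 0 to 7.92 CPM (GFPpos CCR2high), 193 against 3.30 to 17.9 CPM (GFPneg CCR2low) and 60.9 against 0 to 1.87 CPM (GFPpos CCR2low). In GFPpos CCR2low macrophages Ngp stood at 250.4 CPM against 0 to 3.72 CPM and Lcn2 at 52.3 against 3.49 to 9.37 CPM. In GFPneg CCR2low macrophages S100a9 stood at 507 CPM against 8.81 to 93.9 CPM. The groups are not independent, since the same 4 mice recur in each.

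The library of Ly6Clow monocytes of mouse 23 that was left out for its low number of genes also held member counts. They came to 113 for S100a8, 296 for S100a9, 107 for Retnlg and 22 for Lcn2, with 0 for Ngp, Camp, Ltf, Mmp8, Mpo and Elane. In CPM without TMM scaling, S100a8 stood at 103.5 there against 192 in the library of the same sample that was used, S100a9 at 271 against 379 and Retnlg at 98.0 against 88.1. Mmp8 stood at 0 against 81.4 and Lcn2 at 20.1 against 0, so each library held a member that the other lacked.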

How the results depend on the processing

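Of 286 counts of members called under the alternatives, 262 stayed within 1.5 times the value reported. Most of the 14 comparisons had 0 members called, and a 0 that stayed at 0 is among the 262. The tally therefore says little about the comparisons with calls. Between the blood populations, where 1 member was called, DESeq2 called 4 (Ngp, Camp, Ltf and Mmp8), the mouse as a block 2, and a fit on the blood libraries alone or without mouse 22 none (0). In GFPneg glioma monocytes against Ly6Chigh monocytes the 1 call became 0 with DESeq2 size factors, spike-in scaling, no filter, the first library alone of the GFPpos monocytes of mouse 22, or without mouse 22 or 24, ranged from 0 to 1 leaving out single replicates, and became 2 with the block and without mouse 24. With the block and without mouse 24 GFPpos glioma monocytes had 4 members called, and GFPneg CCR2high macrophages had 3 with the block, with or without mouse 24. In GFPneg CCR2low macrophages the 2 calls became 1 with spike-in scaling or without mouse 24, and ranged from 1 to 2 leaving out single replicates (1 without the Ly6Chigh replicate of mouse 23 or 24). GFPneg glioma monocytes against GFPneg CCR2high macrophages had 1 call with DESeq2 or with these populations alone. The block changed no other count of members called. Most of these counts are given without the share of all genes called under the same setting. They do not show whether a setting called more genes in general. The cause of these moves was not tested.

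Of 340 alternative values of 18 log2 fold changes, 284 kept their direction and their side of the threshold, 17 lost it, 10 gained it and 29 changed sign. Among these 18, the reversed values all concern S100a8, S100a9 or Ngp against Ly6Chigh monocytes, and the cause was not tested. The 18 do not cover every member in every comparison. Camp, Ltf and Lcn2 in the brain against Ly6Chigh monocytes are outside them, as is S100a8 in GFPneg glioma monocytes. In the plot of brain populations against Ly6Chigh monocytes these also change side with the block in glioma monocytes, and Camp, Ltf and Lcn2 in CCR2low macrophages. With the mouse as a block, S100a9 stood at -1.96 in GFPneg glioma monocytes, S100a8, S100a9 and Ngp at -1.95, -2.22 and -3.5 in GFPpos glioma monocytes, and S100a8 and S100a9 at -1.83 and -1.80 in GFPneg CCR2low macrophages. Without mouse 24 these 6 values were, in the same order, -0.91, -2.03, -1.66, -9.89, -1.57 and -1.38. With both changes they were -3.24, -3.31, -3.97, -14.2, -2.92 and -2.84. Without mouse 24 Ngp was at 0 in GFPpos glioma monocytes, so its fitted values set no bound. Leaving out single replicates, they ranged from -0.61 to 1.65, -1.71 to 1.47, -1.37 to 1.59, -9.25 to 12.8, -1.21 to 1.14 and -1.05 to 1.33. With spike-in scaling S100a8 and S100a9 stood at -1.92 and -1.5 in GFPpos glioma monocytes and at -0.35 and -0.13 in GFPneg CCR2low macrophages. Spike-in scaling moved the median of all genes to -1.46 in the first of these comparisons and to -0.0162 in the second. Without the Ly6Chigh replicate of mouse 22, or without that mouse, Ngp, Camp and Ltf were at 0 in both blood populations and gave no value. Of 67 population means, all moved by less than 1 SD with unscaled libraries or DESeq2 size factors and 56 did with spike-in scaling. With 3 or 4 mice a group and SEs of 0.71 to 2.79 (log2) between populations that both held counts of a member, differences of several fold in S100a8, S100a9 or Ngp were not detectable.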
